A study of Schizosaccharomyces pombe with 4 samples.

Results

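The genes described here are 53 DNA repair and recombination genes of the fission yeast Schizosaccharomyces pombe, measured in cells that overexpressed the transcription factor Atf1. They were chosen by gene symbol, from the rad, rhp, msh, pms, nse, smc, mus, fbh, rqh, rti, uve, mag, nth, pku, lig, sfr and swi series of the array annotation. The genes rad1, rad3, rad9, rad17, rad21, rad26, rhp6, msh6 and swi6, several of which act in checkpoints, cohesion or silencing, were left out. The rule itself used symbols and no measured value. The genes and the comparison lists below were, however, chosen with earlier results of these data known. The annotation named 2899 S. pombe genes in all, of which 2857 passed the background filter, the 53 repair genes among them. Each repair gene was read by 1 probe set, and 52 of the 53 stood above background on all 4 arrays. The exception was sfr1, above background on 1 of the 2 control arrays.

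Messenger RNA was measured on Affymetrix yeast arrays in 2 groups of 2 biological replicates. The Atf1-OP strain overexpressed Atf1, a bZIP transcription factor that acts below the Sty1 stress-activated MAP kinase, and the control was a wild type strain transformed with the empty vector. The study asked how gene expression in the overexpressing cells differs from that in the control. The labels name neither the vector promoter nor the medium or growth stage.

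DNA repair in fission yeast is divided among pathways that recognise different lesions. Nucleotide excision repair cuts out bulky and ultraviolet-induced lesions, base excision repair removes single damaged bases, and mismatch repair corrects replication errors. Double-strand breaks are mended by homologous recombination, which copies an intact sister duplex, or by end joining, and the Smc5-Smc6 complex, a relative of cohesin and condensin, acts in recombination and at damaged forks. Many of these genes are named after radiation-sensitive mutants (rad), after their budding yeast counterparts (rhp), or after defects in mating type switching (swi), which itself proceeds by recombination.

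The overexpression was visible in the atf1 transcript, at normalized log2 levels of 6.13 and 6.42 with the empty vector and 6.83 and 7.37 with Atf1-OP (limma, adjusted p = 0.0273). Leaving out single arrays gave adjusted p values of 0.128 and 0.0821 (empty vector arrays 1 and 2) and of 0.137 (Atf1-OP array 2), and the fit without a variance trend gave 0.0704, none of which passed. Array medians ranged over 0.28 on the deposited log2 scale, so all levels and differences below are on a log2 scale after quantile normalization, unless the deposited values are named. Added control transcripts also differed between the groups. The hybridisation controls were lower with Atf1-OP by a mean of -1.02, and the poly-A controls were higher by 0.34 at the 3′ end, by 1.22 in the middle and by 1.56 at the 5′ end of the transcripts. On the same deposited scale, the mean over 7 probe sets for S. pombe ribosomal RNA differed by -0.66, and the probe sets of 5 S. pombe control genes were 0.088 higher at the 3′ end and 0.065 higher at the 5′ end. The part of these differences in the results was not tested. In bulk RNA, a change in the share of cells at a cell cycle stage cannot be told apart from a change of RNA per cell. Of 13 measured genes of the G1/S wave, 5 (cdc22, cdc18, cig2, yox1 and psm3) rose and none fell, where 10.2% of all genes rose. An unadjusted p under 0.05 was found for 8 of the 13 and for 38% of all genes, and the list median was 0.67. Of 8 measured mating and meiosis genes, ste11 and mei2 rose and mei4 fell. The ste11 call was lost without empty vector array 1 (adjusted p = 0.0542). The mei2 call was lost without a variance trend and without empty vector array 1, empty vector array 2 or Atf1-OP array 2 (adjusted p = 0.0611, 0.167, 0.128 and 0.0741). The mei4 call was lost with median centring, the deposited values and no variance trend (adjusted p = 0.139, 0.427 and 0.0630), and without empty vector array 1, Atf1-OP array 1 or Atf1-OP array 2 (adjusted p = 0.174, 0.161 and 0.246).

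Most of the repair genes did not pass the test. At a threshold of 0.05 on the Benjamini-Hochberg adjusted p of limma, 7 of the 53 did, or 13.2%, against 21.2% of all genes tested. Among the 7, 3 genes rose (rhp14, mag2 and uve1) and 4 fell (msh1, swi3, rad60 and nse3), where 10.2% of all genes rose and 11% fell. The median log2 difference was 0.026 over the repair genes and -0.013 over all genes. Of the repair genes 29 lay above 0 and 24 below, and of all genes 1390 and 1467. A difference within 0.2 of 0 on the log2 scale was found for 28 repair genes, or 52.8%, and for 40.9% of all genes. The arrays of the groups did not overlap for 30 repair genes, or 56.6%, against 66.4% of all genes. Of the 53 repair genes only rhp14 reached a 2-fold difference, and of all 2857 genes 51 did. At an unadjusted p under 0.05 there were 16 repair genes, or 30.2%, against 38% of all genes. A further 8 of the 53 repair genes had an adjusted p between 0.05 and 0.10, as did 325 of all 2857 genes.

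**Figure D1:**
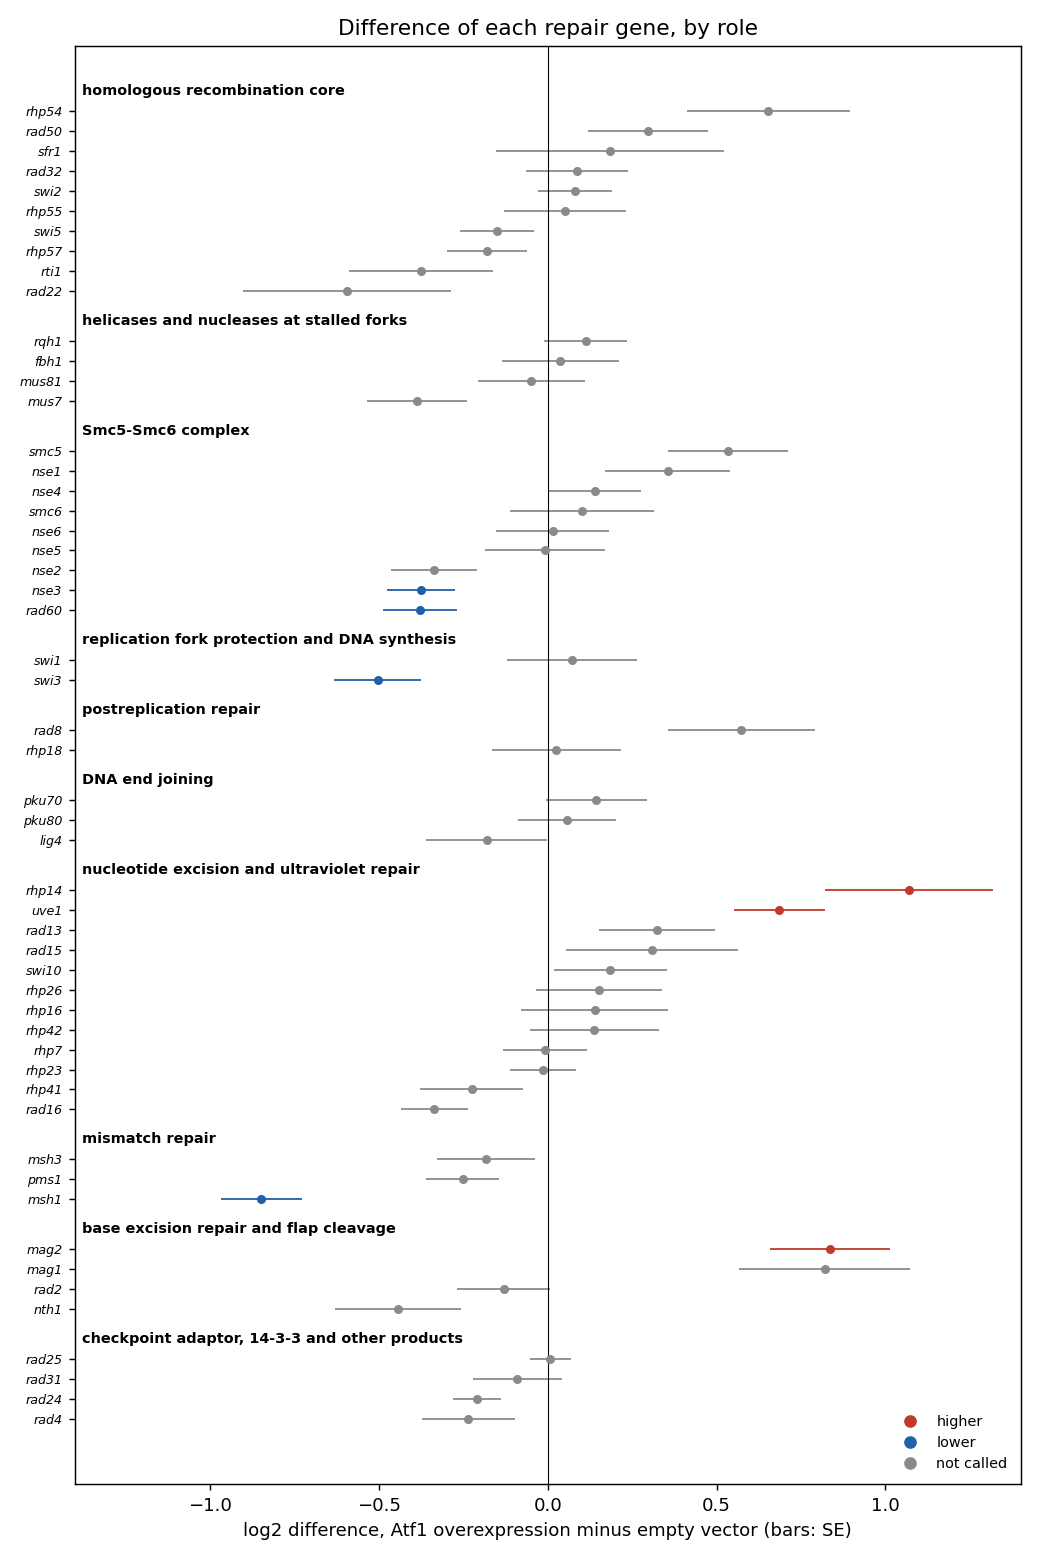
Log2 difference (overexpression minus empty vector, after quantile normalization) of the 53 repair genes, grouped by role and ordered by size within a role; bars are the standard error of the limma fit with 2 arrays per group. The 3 genes that rose are in red and the 4 that fell in blue, and the genes that did not pass run from -0.59 to 0.82.

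The numbers of higher and lower calls depended on the scaling. With each array centred on its median, 9 repair genes rose and 6 fell, where 15.3% of all genes rose and 12.1% fell. With the values as deposited, in which the all-gene median was shifted by 0.27 toward Atf1-OP, 14 repair genes rose and 1 fell, where 31.6% of all genes rose and 4.06% fell. Relative to the median of all genes, the repair list median was 0.039 with quantile normalization, 0.049 with centring and 0.049 with the deposited values. Without empty vector array 1 only 1 repair gene, rhp14, passed, where 1.86% of all genes passed. Without empty vector array 2 none passed in limma, where 2.38% of all genes did, although 7 higher and 4 lower repair genes had an unadjusted p under 0.05. Without Atf1-OP array 1, 2 rose and 7 fell, where 11.2% and 13.1% of all genes did. Without Atf1-OP array 2 none rose and 3 fell, where 5.99% and 6.67% did, and 2 higher repair genes had an unadjusted p under 0.05. The share of all genes with an unadjusted p under 0.05 is not given for the fits without 1 array. The counts of repair genes at that unadjusted threshold in these fits therefore have no background, and no excess over all genes can be read from them. For none of the 7 genes that passed in the main fit did the call survive all 4 omissions of an array.

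**Figure D2:**
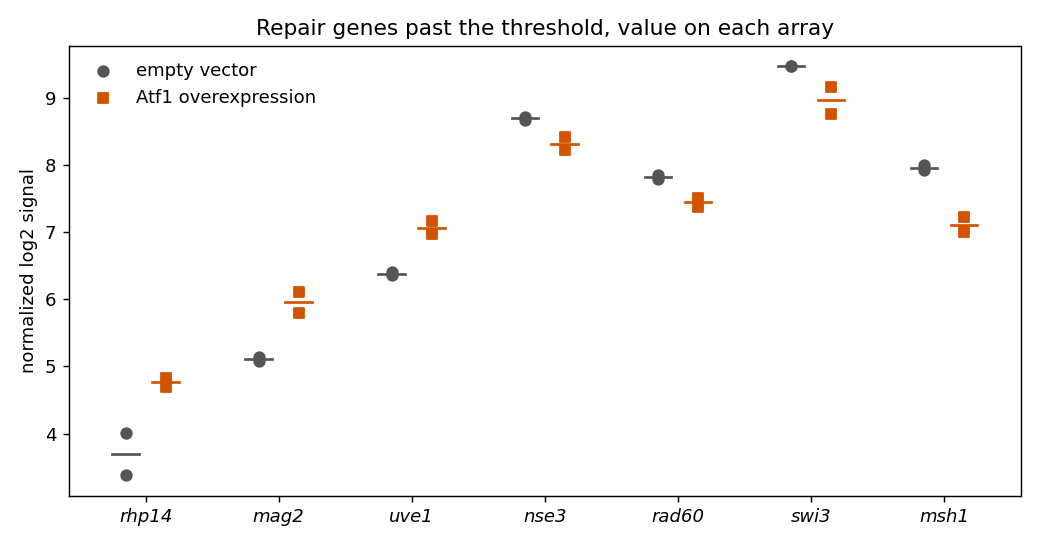
Normalized log2 signal on each array for the 7 repair genes that passed an adjusted p of 0.05, with grey circles for the 2 empty vector arrays, orange squares for the 2 overexpression arrays and a line at each mean. The groups do not overlap for any of the 7, and the 2 control values of swi3 coincide.

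Of 12 genes of nucleotide excision and ultraviolet repair, rhp14 and uve1 rose and none fell. The rhp14 gene (SPBC649.03) encodes the counterpart of human XPA, which helps to verify damage before incision. Its levels were 4.01 and 3.38 on the empty vector arrays and 4.69 and 4.83 with Atf1-OP, so both overexpression arrays were above both control arrays. The difference was 1.07 ± 0.25 (SE), or 2.10-fold (limma, adjusted p = 0.0239). The lower control value lay close to the normalized background of that array, 3.33, and with a pseudocount of 16 the difference was 0.57. The call was lost without empty vector array 2 (adjusted p = 0.0901), Atf1-OP array 1 (adjusted p = 0.108) or Atf1-OP array 2 (adjusted p = 0.192), and without a variance trend (adjusted p = 0.0539).

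The uve1 gene (SPBC19C7.09C) encodes the ultraviolet damage endonuclease, which nicks DNA beside a photoproduct in a route separate from classical excision repair. It stood at 6.36 and 6.40 with the empty vector and at 6.98 and 7.16 with Atf1-OP. The groups were well apart, with a mean of 6.38 ± 0.028 (SD, n = 2) with the empty vector and 7.07 ± 0.13 (SD, n = 2) with Atf1-OP. The difference was 0.69 ± 0.13 (SE), or 1.61-fold (limma, adjusted p = 0.0156). Omitting an array ended the call for empty vector array 1 (adjusted p = 0.0832), empty vector array 2 (adjusted p = 0.0888) and Atf1-OP array 2 (adjusted p = 0.0663).

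The other 10 excision repair genes lay between -0.34 and 0.32. The nearest to the threshold was rad16, whose product is the XPF subunit of the nuclease that cuts on the 5′ side of a lesion. It read 8.05 and 8.0 with the empty vector and 7.73 and 7.65 with Atf1-OP, which gave a difference of -0.34 ± 0.10 (SE) and an adjusted p of 0.0511. The gene of its partner subunit, swi10 (ERCC1), stood at 0.18, with overlapping groups. The gene of the nuclease for the other side, rad13 (XPG), stood at 0.32, and that of the TFIIH helicase, rad15 (XPD), at 0.31. Damage recognition involves XPC-type proteins, encoded by rhp41 (-0.23) and rhp42 (0.14), and their partner Rhp23 (-0.015). The genes for the global genome factors Rhp7 (-0.0082) and Rhp16 (0.14) and for the transcription-coupled repair factor Rhp26 (0.15) all had overlapping groups and adjusted p values of 0.58 or more.

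Of 4 genes of base excision repair and flap cleavage, mag2 rose and none fell. Both mag genes encode proteins of the 3-methyladenine DNA glycosylase family, which in other organisms remove alkylated bases. For mag2 (SPBC23G7.11) the levels were 5.09 and 5.15 with the empty vector and 6.11 and 5.80 with Atf1-OP. Both overexpression arrays were higher, and the difference was 0.84 ± 0.18 (SE), or 1.79-fold (limma, adjusted p = 0.0194). The call was lost in each fit without 1 array, with adjusted p values of 0.0750 and 0.0808 without empty vector arrays 1 and 2 and of 0.0850 and 0.0507 without Atf1-OP arrays 1 and 2. With the deposited values the mag2 difference was 1.29.

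The mag1 levels were 4.36 and 5.0 with the empty vector and 5.33 and 5.67 with Atf1-OP. The fitted difference was of similar size, 0.82 ± 0.25 (SE), but the control arrays were farther apart and the adjusted p was 0.0559. Whether the probe sets of these related genes tell their transcripts apart was not tested. The nth1 gene, for an endonuclease III type glycosylase of oxidised bases, had the opposite sign, with 6.27 and 6.23 with the empty vector and 6.03 and 5.58 with Atf1-OP. Its difference was -0.44 ± 0.19 (SE) and its adjusted p 0.126. The gene of the flap endonuclease Rad2 (FEN1), which also matures Okazaki fragments, stood at -0.13 (adjusted p = 0.517).

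Of 3 mismatch repair genes, msh1 fell and none rose. The msh1 gene (SPAC13F5.01C) encodes a MutS homologue named after the mitochondrial MutS protein of budding yeast. It read 7.92 and 7.99 with the empty vector and 7.22 and 7.0 with Atf1-OP. This was the smallest adjusted p among the repair genes, with a difference of -0.85 ± 0.12 (SE), or 1.80-fold lower (limma, adjusted p = 0.00659). The call was kept under 12 of 14 alternative settings, and was lost without empty vector array 1 (adjusted p = 0.0543) and without empty vector array 2 (adjusted p = 0.0612). It was also the 1 repair gene that fell with the values as deposited, at -0.68. The MutL homologue gene pms1 stood at -0.25 (adjusted p = 0.133) and msh3, which encodes a nuclear MutS homologue also known as Swi4, at -0.18 (adjusted p = 0.389). Both had groups that did not overlap, but msh3 had a positive sign, 0.20, in the deposited values. The remaining MutS homologue gene measured, msh6, is not among the 53 and stood at 0.28 (adjusted p = 0.180).

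The Smc5-Smc6 complex was represented by 9 genes, of which nse3 and rad60 fell and none rose. The nse3 gene encodes a MAGE-family subunit that binds the complex's kleisin, and its levels were 8.71 and 8.67 with the empty vector and 8.41 and 8.22 with Atf1-OP. The difference was -0.38 ± 0.10 (SE), or 1.30-fold lower (limma, adjusted p = 0.0356). The rad60 gene encodes a protein with SUMO-like domains that acts with the complex, and it stood at 7.86 and 7.79 with the empty vector and at 7.51 and 7.37 with Atf1-OP. Its difference was also -0.38 ± 0.11 (SE) (limma, adjusted p = 0.0464). Both genes lay lower on each overexpression array than on either control array. With the deposited values the differences were -0.21 for nse3 and -0.23 for rad60 and neither passed (adjusted p = 0.113 and 0.143). Without empty vector array 1 the adjusted p values were 0.20 and 0.24, without empty vector array 2 they were 0.187 and 0.185, and without Atf1-OP array 2 they were 0.0672 and 0.116. Without a variance trend they were 0.0935 and 0.0819.

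Other subunits of the complex had other signs. The gene of the ATPase subunit Smc5 was at 5.01 and 4.85 with the empty vector and 5.37 and 5.56 with Atf1-OP, with a difference of 0.53 ± 0.18 (SE) and an adjusted p of 0.0705. That of its partner Smc6 stood at 0.10, with overlapping groups. The SUMO ligase gene nse2 stood at -0.34 (adjusted p = 0.0966) and the RING subunit gene nse1 at 0.36 (adjusted p = 0.201). The kleisin gene nse4 stood at 0.14, and the genes nse5 and nse6, whose products form a separate pair, at -0.0076 and 0.014. The genes of this complex thus did not share a sign, with 5 of 9 above 0.

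Of the pair of genes for the fork protection complex, swi3 fell and swi1 did not pass. The complex, the counterpart of human Tipin and Timeless, stabilises paused replication forks and is needed for mating type switching. The swi3 gene (SPBC30D10.04) read 9.47 on both control arrays and 9.17 and 8.76 with Atf1-OP. The difference was -0.50 ± 0.13 (SE), or 1.42-fold lower (limma, adjusted p = 0.0316). The equal control values come from equal ranks after quantile normalization, and in the deposited values the control arrays read 9.35 and 9.33. Without Atf1-OP array 2 the difference was -0.29, and with the deposited values it was -0.31 and did not pass (adjusted p = 0.0775). The call was also lost without empty vector array 1 (adjusted p = 0.142) or 2 (adjusted p = 0.156), and without a variance trend (adjusted p = 0.0987). For swi1 the levels were 5.86 and 6.06 with the empty vector and 6.26 and 5.81 with Atf1-OP, so the groups overlapped, and the difference was 0.071 ± 0.19 (SE).

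None of the 10 genes of the homologous recombination core passed the test in limma, and 1 had an unadjusted p under 0.05. That gene was rhp54, now named rad54, which encodes a DNA motor protein of the Swi2/Snf2 family. It read 4.65 and 4.68 with the empty vector and 4.99 and 5.65 with Atf1-OP. Its 2 overexpression arrays were far apart, and the difference was 0.65 ± 0.24 (SE) with an adjusted p of 0.0931. Without Atf1-OP array 1 the difference was 1.0 and passed (adjusted p = 0.0459), and without Atf1-OP array 2 it was 0.34. With the deposited values rhp54 rose by 1.20 and with median centring by 0.98.

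Fission yeast has 2 genes of the Rad52 family, whose products bind and anneal single-stranded DNA, and both had negative differences that did not pass. For rad22, now named rad52, the levels were 3.81 and 4.56 with the empty vector and 3.86 and 3.32 with Atf1-OP. The groups overlapped, and the 95% interval of the difference of -0.59 ran from -1.31 to 0.12. For rti1 the difference was -0.37 (adjusted p = 0.235), and it stood at 0.12 in the deposited values. The genes rhp55 and rhp57, whose products form a heterodimer that acts in recombination, stood at 0.051 and -0.18. The genes of the Swi5-Sfr1 complex, which acts in strand exchange, stood at -0.15 for swi5 and 0.18 for sfr1, and swi2, whose product directs switching with Swi5, stood at 0.080. Of the complex that first binds broken ends, rad32, now named mre11, stood at 0.086 and rad50 at 0.30 (adjusted p = 0.258), and the remaining gene nbs1, which the symbol rule did not reach, at -0.30 (adjusted p = 0.0990).

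None of the 3 end joining genes passed, and none had an unadjusted p under 0.05. The Ku heterodimer, which caps broken ends, is encoded by pku70 and pku80. The pku70 levels were 6.24 and 6.09 with the empty vector and 6.38 and 6.24 with Atf1-OP, and the 95% interval of its difference ran from -0.20 to 0.49. The pku80 interval ran from -0.28 to 0.40, and the groups overlapped for both genes. For lig4, the gene of the ligase that seals the joined ends, the smallest p of the 3 was found, at 5.16 and 5.02 with the empty vector and 4.84 and 4.99 with Atf1-OP. Its difference was -0.18 (adjusted p = 0.486), and it was 0.36 in the deposited values and 0.14 with median centring.

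At stalled forks, none of the 4 helicase, nuclease and associated genes passed, and 1 had an unadjusted p under 0.05. That gene, mus7, encodes a fork repair factor related to budding yeast Mms22, and read 6.28 and 6.32 with the empty vector and 5.98 and 5.84 with Atf1-OP. Both overexpression arrays were lower, and the difference was -0.39 ± 0.15 (SE) with an adjusted p of 0.0989, but it was -0.011 in the deposited values. The RecQ helicase gene rqh1 stood at 0.11, the F-box helicase gene fbh1 at 0.037 and the gene of the structure-selective nuclease Mus81 at -0.049. In postreplication repair, which lets forks pass damaged bases, the gene of the Rad5-like ligase and helicase Rad8 read 4.44 and 4.85 with the empty vector and 5.06 and 5.37 with Atf1-OP. Its difference was 0.57 ± 0.22 (SE) with an adjusted p of 0.0982, and it passed with median centring at 0.89. The ubiquitin ligase gene rhp18 stood at 0.026.

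Among the remaining 4 genes, which share the rad name but have broader roles, none passed and 1, rad24, had an unadjusted p under 0.05. The 14-3-3 protein genes rad24 and rad25 differed by -0.21 ± 0.071 (SE) and 0.0077 ± 0.062 (SE). The rad24 levels were 10.48 and 10.45 with the empty vector and 10.19 and 10.31 with Atf1-OP, with an adjusted p of 0.0738, and the difference was 0.014 in the deposited values. The rad25 interval was the narrowest of the 53, from -0.14 to 0.15, and the groups overlapped. The gene rad4, for the checkpoint and replication initiation adaptor also known as Cut5, stood at -0.23 and the SUMO activating enzyme subunit gene rad31 at -0.091. Over the 53 genes the half-width of the unadjusted 95% interval had a median of 0.37 and ran from 0.14 to 0.79. A difference smaller than its half-width could not be told from 0 with 2 arrays per group. Larger differences did not all pass the adjusted threshold, as for smc5 (0.53, half-width 0.42) and rad16 (-0.34, half-width 0.23).

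The sign of the difference went with the brightness of the probe set among the 53 repair genes of the symbol list. Of 23 repair genes with a mean log2 signal up to 6, 19 had a positive difference and the median was 0.14. Of 30 repair genes above that signal, 10 had a positive difference and the median was -0.14. Over all genes the medians in the same ranges were -0.0078 for 876 genes and -0.014 for 1981 genes. Across the 53 repair genes Pearson's r between signal and difference was -0.40 and Spearman's rho -0.47, while across all 2857 genes they were -0.012 and -0.0056. The points share the same 4 arrays, signal depends on the probes as well as on the transcript, and genes are not independent replicates. Repair genes outside the symbol rule, described below, did not show mostly positive differences at low signal. Of those 53, 15 had a positive and 38 a negative difference. Most were negative both at a signal up to 6 and above it. Those up to 6 ran from -1.21 (dmc1) to 0.81 (atl1). The pattern is therefore given for the symbol list alone. Between gene length and difference, r was -0.00030 across the repair genes and 0.13 across all genes. The repair genes that rose were 794 to 2014 bp long and those that fell 998 to 3112 bp.

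**Figure D3:**
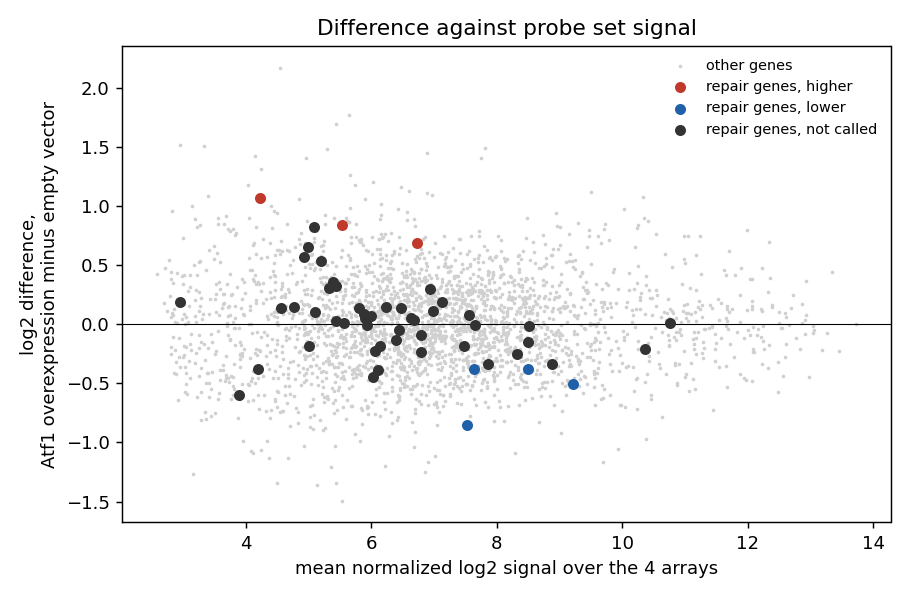
Log2 difference (overexpression minus empty vector) against the mean normalized log2 signal over the 4 arrays, with the 53 repair genes as large points, coloured by their call, over the other tested genes in grey. The large points slope downward from left to right (r = -0.40), and the other genes show no such slope (r = -0.012 across all 2857 genes).

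Repair genes outside the symbol rule were compared through a separate list of 61 symbols, of which 53 were measured. Of these, 3 fell and none rose in limma, or 5.66%, against 21.2% of all genes. An unadjusted p under 0.05 was found for 18 of the 53, a smaller share than the 38% of all genes. Of these 18, 4 had a positive and 14 a negative difference, where all genes had 515 positive and 570 negative. The median of this separate list was -0.097. The meiotic recombinase gene dmc1 fell the most, with 5.81 and 6.10 with the empty vector and 5.16 and 4.34 with Atf1-OP, a difference of -1.21 ± 0.28 (SE) (adjusted p = 0.0232). The gene sws1, of a Shu-type complex that acts in recombination, read 8.48 and 8.55 with the empty vector and 8.17 and 8.13 with Atf1-OP, a difference of -0.36 ± 0.091 (SE) (adjusted p = 0.0295). The gene of the structure-specific nuclease Slx1 read 4.77 and 4.75 with the empty vector and 4.21 and 3.86 with Atf1-OP, a difference of -0.72 ± 0.21 (SE) (adjusted p = 0.0437). The 3 calls were lost without empty vector array 1 or 2 and without Atf1-OP array 2, and with the deposited values (adjusted p = 0.0575, 0.117 and 0.457 in that order) or without a variance trend (adjusted p = 0.0616, 0.0753 and 0.0535). The slx1 call was also lost without Atf1-OP array 1 (adjusted p = 0.0796) and with median centring (adjusted p = 0.167). Among the genes that did not pass was ctp1, whose product starts the resection of breaks, at 0.34 (adjusted p = 0.0959).

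**Figure D4:**
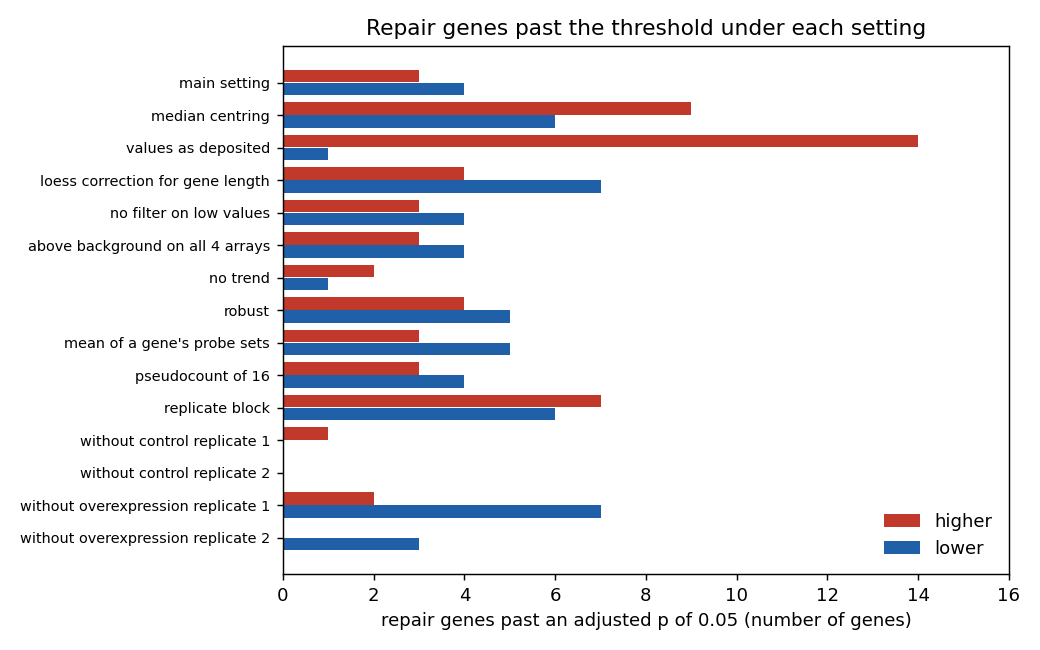
Number of repair genes that passed an adjusted p of 0.05 in limma, higher in red and lower in blue, under the main setting (quantile normalization, 2 arrays per group) and each of 14 alternatives. The counts run from 0 to 14 higher and from 0 to 7 lower, with the most rises for the values as deposited.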

How the data were processed

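The authors deposited one log2 value per probe set for each of 4 Affymetrix arrays (log2 being judged from the range, 1.46 to 14.0), and biotin-labelled cRNA was made per the labels' protocols. The summarisation behind these log2 values is not given in the sources used here. Probe sets were named from the platform annotation and the RefSeq gene table of assembly ASM294v3, by identifier for 2914 and by symbol for 3 S. pombe probe sets. Of the repair gene symbols, 5 have since been renamed. Quantile normalization was run over the S. pombe probe sets alone, and for genes with several probe sets the brightest was kept. A gene was tested if it exceeded the 95th percentile of the 2593 S. cerevisiae probe sets on at least 2 of the 4 arrays. Groups, taken from the sample titles, were tested against each other with limma 3.58.1 under R 4.3.3 (eBayes with trend, two-sided, Benjamini-Hochberg adjustment over 2857 genes). The number of arrays limits the precision. The p-values and SEs rest on the spread between the 2 arrays of a group, moderated by a variance trend fitted over all genes tested.

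Values on each array are given for every repair gene past the threshold and for the gene with the smallest p of each role where none passed. They are also given for mag1, nth1, rad16, smc5, swi1, rad22 and pku70, chosen after their values were seen. The genes, lists, roles and settings were chosen with earlier results of these data known. Alternatives covered the scaling, the filter on low values, the variance model, the handling of several probe sets, a pseudocount of 16, a block for the replicate number and the omission of each array, with scaling and filter repeated. The method was tested on simulated data. Plots were made in Python 3.11.15 with matplotlib 3.10.9. Promoter and protein sequences were not used here.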

Additional observations from a re-analysis of the deposited data

How the results depend on the processing

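With 2 arrays per group, the number of repair genes that passed depended on scaling, variance model and single arrays. Of the 98 combinations of the 7 genes that passed with an alternative, 71 kept direction and call, 27 kept the direction only and none reversed. The filters and the mean over probe sets left the differences of the 7 genes unchanged, so those combinations nearly repeat the main fit. With median centring 9 repair genes rose, with a median of 0.097, and 5 other repair genes rose. With the values as deposited 14 repair genes rose and 1 fell, with a median of 0.32, 9 other repair genes rose and 0 fell, and 903 of all genes rose and 116 fell. With the loess correction for gene length 7 repair genes fell and 3 other repair genes rose, where 13.5% of all genes fell and 12.5% rose. Without a variance trend 1 repair gene and 0 other repair genes fell, and 95 of all genes rose and 70 fell. The cause of these shifts was not tested. Leaving out 1 array at a time, which leaves a lone array assumed to vary like the other group, gave 0 to 2 repair genes higher and 0 to 7 lower, a median of -0.027 to 0.020, 0 to 1 other repair genes higher and 0 to 5 lower, and 39 to 315 of all genes higher and 14 to 367 lower. The replicate number of the titles, taken as a replicate block, gave 7 repair genes higher and 6 lower, 4 other repair genes higher and 7 lower, and 415 and 437 of all genes. Deviations of same-numbered arrays from their group means correlated at 0.038 across genes. The titles do not say whether same-numbered arrays were handled together, and with 2 arrays per group that correlation cannot settle it.

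Some repair genes that did not pass changed sign under other settings, and none passed with the sign turned. With median centring the difference was 0.14 for lig4, 0.035 for mus81 and 0.17 for nse5. With the values as deposited it was 0.36 for lig4, 0.20 for msh3, 0.26 for mus81, 0.39 for nse5, 0.19 for rad2, 0.014 for rad24, 0.13 for rad31, 0.16 for rhp23, 0.16 for rhp41, 0.13 for rhp7, 0.12 for rti1 and 0.024 for swi5. With the length correction it was -0.0016 for fbh1, 0.045 for nse5, 0.011 for rhp23 and -0.048 for swi1. Leaving out 1 array at a time, the difference ran from -0.14 to 0.22 for fbh1, -0.20 to 0.11 for mus81, -0.15 to 0.13 for nse5, -0.093 to 0.13 for nse6, -0.051 to 0.16 for pku80, -0.035 to 0.64 for rad15, -0.0062 to 0.023 for rad25, -0.16 to 0.44 for rhp16, -0.16 to 0.21 for rhp18, -0.10 to 0.067 for rhp23, -0.13 to 0.23 for rhp55, -0.13 to 0.11 for rhp7, -0.33 to 0.70 for sfr1, -0.12 to 0.33 for smc6, -0.16 to 0.30 for swi1 and -0.012 to 0.37 for swi10.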
